A study of Mus musculus with 6 samples.

Results

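The histone genes were examined in mouse dental mesenchymal cells (mDMCs), the cells of a tooth germ that remain once its dental epithelium is separated off. Members were taken by name alone. All genes named *Hist* followed by a digit form the replication-dependent class, and those whose names begin with *H2af*, *H3f3* or *H1f* form the replacement class. The tables held 71 such genes of 11386 measured, 61 *Hist* genes and 10 replacement genes. The *Hist* genes comprised 5 of family H1, 17 of H2A, 16 of H2B, 11 of H3 and 12 of H4. They lie in the clusters that their names give, with 49 in Hist1 on chromosome 13, 9 in Hist2 on chromosome 3, 2 in Hist3 on chromosome 11 and 1 in Hist4 on chromosome 6.

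RNA came from mDMCs of ICR mice, taken from lower first molar germs at embryonic day 14.5. Cells were either freshly isolated (P0) or grown in DMEM with fetal bovine serum and collected at the first (P1) or second (P2) passage, with 2 libraries per passage and 6 in all. P1 and P2 cells were grown from part of the P0 cells, and the sources used here do not say whether the libraries of a passage came from separate cultures or litters, so that the p-values measure the spread between libraries, which may be technical. The question put by the design was which genes change when mDMCs are expanded in culture, and here it was asked of the genes that make histones.

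Histones are the proteins around which DNA is wound in the nucleus. A pair each of H2A, H2B, H3 and H4 forms the core of a nucleosome, and H1 binds the linker DNA between cores. Replication-dependent histone genes are transcribed mainly in S phase, when new DNA needs new nucleosomes, and their mRNAs end in a stem-loop that is bound by the protein SLBP in place of a poly(A) tail. Replacement histones are made throughout the cell cycle from mRNAs with a poly(A) tail and are put into chromatin outside of replication. The libraries were made with a TruSeq RNA kit, whose standard protocol selects RNA by its poly(A) tail. Values of *Hist* genes in such libraries depend on which of their transcripts carry a tail.

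The stem-loop sets the 2 classes apart in sequence, and it is shown here for the *Hist* gene that changed most (*Hist3h2ba*), for other *Hist* genes described below and for the only replacement gene that had it (*H2afx*). Each line gives 26 bases of the GENCODE M21 transcript (GRCm38), 5′ to 3′, with the 16 bases of the stem-loop in capitals.
Hist3h2ba: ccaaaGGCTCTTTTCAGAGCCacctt
Hist1h2be: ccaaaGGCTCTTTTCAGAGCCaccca
Hist4h4: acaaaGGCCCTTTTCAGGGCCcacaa
Hist1h4j: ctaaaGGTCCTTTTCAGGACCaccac
Hist1h3f: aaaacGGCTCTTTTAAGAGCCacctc
H2afx: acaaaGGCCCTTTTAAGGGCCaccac
The stem-loop was found in transcripts of 39 of the 61 *Hist* genes and of 1 of the 10 replacement genes, and in 0.0783% of all 141767 transcripts. The form of *Hist3h2ba* and *Hist1h2be* was the most common, with 21 members. In the other 22 *Hist* genes the annotated transcript did not hold it. Some of these models, such as the 381 bases of *Hist1h2bm*, are short, and a gene without a match may have the stem-loop beyond the annotated end.

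Promoters of the classes also differed in the letters they hold. The 250 bases before the transcription start are shown for 2 *Hist* genes that fell at both passages, for the replacement gene that rose (*H2afj*) and for a replacement H3 gene that fell (*H3f3a*). The sequences are those of RefSeq on GRCm38, written 5′ to 3′ along the gene, with matches on either strand to CCAAT, to the TATA box (TATAAA) or to the octamer ATTTGCAT in capitals.
Hist3h2ba (chr11:58948661-58948910, + strand): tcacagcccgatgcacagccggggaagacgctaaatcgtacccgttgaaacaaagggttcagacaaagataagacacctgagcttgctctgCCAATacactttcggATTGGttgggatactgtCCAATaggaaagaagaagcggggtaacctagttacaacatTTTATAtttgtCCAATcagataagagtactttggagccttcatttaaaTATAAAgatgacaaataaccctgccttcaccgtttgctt
Hist1h2bm (chr13:21721794-21722043, + strand): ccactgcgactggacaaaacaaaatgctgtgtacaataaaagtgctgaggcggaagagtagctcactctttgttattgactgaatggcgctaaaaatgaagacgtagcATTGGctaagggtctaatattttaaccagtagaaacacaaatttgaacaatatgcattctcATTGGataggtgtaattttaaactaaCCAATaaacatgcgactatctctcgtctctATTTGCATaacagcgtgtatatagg
H2afj (chr6:136807998-136808247, + strand): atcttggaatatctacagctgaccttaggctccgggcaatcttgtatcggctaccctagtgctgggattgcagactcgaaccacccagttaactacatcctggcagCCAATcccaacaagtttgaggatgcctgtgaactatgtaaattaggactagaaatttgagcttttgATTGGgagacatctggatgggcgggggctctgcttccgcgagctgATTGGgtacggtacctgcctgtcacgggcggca
H3f3a (chr1:180813606-180813855, - strand): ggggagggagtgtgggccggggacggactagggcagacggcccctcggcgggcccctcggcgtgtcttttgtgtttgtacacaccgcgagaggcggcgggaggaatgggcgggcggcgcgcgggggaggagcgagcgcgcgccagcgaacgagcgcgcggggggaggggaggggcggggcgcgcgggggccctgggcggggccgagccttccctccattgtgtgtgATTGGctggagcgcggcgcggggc
RefSeq promoters of 300 bases (250 before and 50 after the start) could be matched to 60 members, 52 *Hist* and 8 replacement genes. CCAAT is bound by the factor NF-Y, the TATA box by the TATA-binding protein, and the octamer by POU factors, and the octamer is known from H2B promoters. Counting both strands, CCAAT was in 84.6% of *Hist* and 62.5% of replacement promoters, against 37.9% of all 27025 promoters. It was in all promoters of *Hist* families H1, H2A, H2B and H3 that were matched, but in 3 of 11 H4 promoters. TATAAA was in 59.6% of *Hist* promoters and in 0 of 8 replacement promoters, against 14.2% of all. ATTTGCAT was in 6 of 13 H2A and 5 of 14 H2B promoters, in 0 of the H1, H3, H4 and replacement promoters, and in 1.75% of all. Promoters of some neighbouring H2A and H2B genes on opposite strands overlap, so the same site can be counted for both genes. In *Hist1h2ae* and *Hist1h2bg*, for example, the TATAAA match and the octamer are the same sites. The counts are therefore not of separate sites. No binding was measured, and a match is only a match of letters.

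Values are given in scaled units, which are the authors' normalized value of a gene divided by the total of its passage and multiplied by 1000000. They are not corrected for gene length, so a gene is compared with itself across passages and not with other genes. The authors had given the libraries a common distribution of values, so depth per library is unknown, and 5 members had equal values in both P0 libraries. The tables gave both library values of a passage without saying which value belonged to which library, and they are written lower value first. All 10 listed markers of dental mesenchyme, *Msx1*, *Pax9* and *Lhx6* among them, were above 0 in every library. Of these 10, 4 fell and 1 rose in both P1 and P2 against P0. Of all genes 12.0% were called lower and 12.2% higher in P1, and 14.4% and 14.0% in P2. *Pax9* (log2 fold change -1.37 and -1.71), *Lhx6* (-1.75 and -2.04), *Pdgfra* and *Twist1* fell, and *Col1a1* rose (1.63 and 2.85). Markers of red cells, endothelium and Schwann cells were far higher in P0 than in culture. The 9 red cell genes measured, of 15 listed, summed to 10004.1 to 14249.2 scaled units in P0, 1.9 to 2.8 in P1 and 1.9 to 7.6 in P2, and *Slc4a1*, *Hbb-bh1* and *Hba-x* were at 0 in all P1 and P2 libraries. The 10 endothelial genes, all measured, summed to 455.0 to 503.8 in P0, 10.6 to 17.1 in P1 and 5.8 to 10.3 in P2, with *Robo4*, *Tie1* and *Cldn5* at 0 in all P1 and P2 libraries. The 6 dental epithelial genes measured, of 12 listed, summed to 58.2 to 119.4 in P0, 57.6 to 105.9 in P1 and 82.4 to 110.4 in P2, of which *Perp* made up most in P1 and P2, and *Krt15* was at 0 in both. The 4 macrophage genes measured, of 12 listed names, summed to 51.2 to 59.7, 13.6 to 17.4 and 36.6 to 63.5 in P0, P1 and P2. Of these genes *Lyz2* was higher in P2 than in P0, and *Csf1r* and *Irf8* fell in both P1 and P2 against P0. *Ptprc* was not called in any comparison. The 2 Schwann cell genes, of 7 listed, summed to 96.9 to 103.9 in P0 and to 0.9 to 1.1 in each of P1 and P2. The part of these cells in the histone values of P0 was not tested. In bulk RNA, fewer cells that express a gene and less of its RNA per cell cannot be told apart.

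Summed *Hist* mRNA, as far as these libraries captured it, was lower at each passage. The 61 *Hist* genes summed to 20669.8 scaled units in P0, 10674.9 in P1 and 6035.3 in P2, which is 51.6% of the P0 sum in P1 and 29.2% in P2. Taking the lower or the higher library value of every gene moved these shares between 45.7% and 58.5% in P1 and between 21.9% and 37.5% in P2. The mean of every 1 of the 61 genes was lower in P1 than in P0 and lower in P2 than in P1. In 56 of the 61 genes (91.8%) the libraries of the 3 passages did not overlap in this order, against 5 of 10 replacement genes and 12.3% of all genes.

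**Figure D1:**
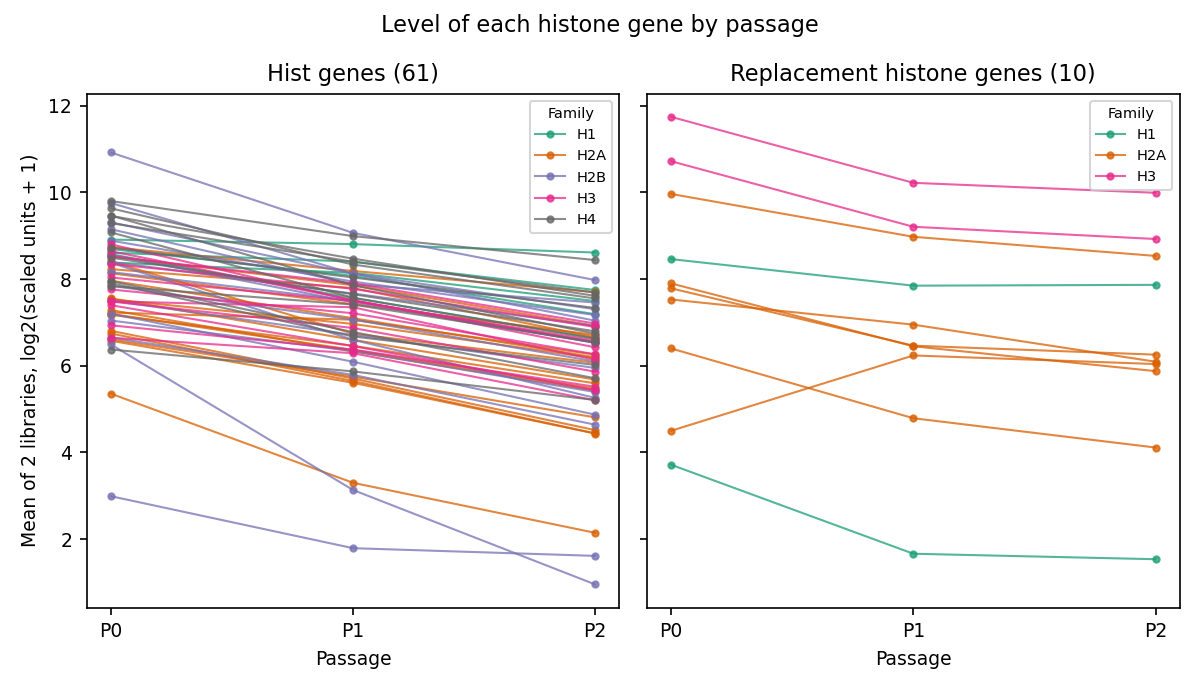
Level of each histone gene in P0, P1 and P2, as the mean of 2 libraries on the scale log2(scaled units + 1), with the 61 *Hist* genes at the left, the 10 replacement genes at the right and a colour for each family. All *Hist* lines run down at both steps, whereas 9 of 10 replacement lines are lower in P1 than in P0 and the P2 libraries of 5 lie below those of P1, and *H2afj* runs up to P1.

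Most of the difference in the replacement genes lay at the first passage. They summed to 7228.5 scaled units in P0, 2917.1 in P1 and 2389.5 in P2, or 40.4% of the P0 sum in P1 (36.8% to 43.9%) and 33.1% in P2 (27.0% to 39.1%). *H3f3b*, *H3f3a* and *H2afz* made up most of these sums. Tests of single genes (limma with Benjamini-Hochberg adjustment over 11386 genes) called a gene where it differed at least 2-fold with an adjusted p under 0.05.

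In P1 against P0, 21 of 61 *Hist* genes and 6 of 10 replacement genes fell, where 12.0% of all genes were called lower. No *Hist* gene rose, and 1 replacement gene, *H2afj*, rose, where 12.2% of all genes were called higher. The median log2 fold change was -0.85 over the *Hist* genes, -1.39 over the replacement genes and 0.02 over all genes. Both P1 libraries lay below both P0 libraries in 57 of 61 *Hist* genes and 9 of 10 replacement genes, against 40.5% of all genes, and above them in 0 *Hist* genes and in *H2afj*, against 42.0%. Adjusted p-values of the *Hist* genes that fell ran from 5.29e-05 to 0.0197.

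In P2 against P0, 57 of 61 *Hist* genes and 8 of 10 replacement genes fell, where 14.4% of all genes were called lower. Again no *Hist* gene rose and *H2afj* was the only replacement gene that did, where 14.0% of all genes were called higher. The median log2 fold change was -1.77 over the *Hist* genes, -1.67 over the replacement genes and 0.01 over all genes. The P2 libraries lay below the P0 libraries in 60 of 61 *Hist* genes, against 42.2% of all genes, and above them in 0 *Hist* genes and in *H2afj*, against 42.6%. Adjusted p-values of the *Hist* genes that fell ran from 1.17e-05 to 0.0226. P1 and P2 were set against the same P0 libraries, so the comparisons share their control.

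Between the passages the *Hist* genes had lower values in P2 while the replacement genes had a median closer to 0, and few single genes passed the test. In P2 against P1, 4 *Hist* genes and 0 replacement genes fell, where 0.211% of all genes (24 genes) were called lower and 0.0878% (10 genes) higher. *Hist* genes were thus 16.7% of the genes that were lower in P2 than in P1, and these were 6.56% of the *Hist* genes. The median log2 fold change was -0.94 over the *Hist* genes, -0.29 over the replacement genes and 0.00 over all genes. The P2 libraries lay below the P1 libraries in 59 of 61 *Hist* genes and in 5 of 10 replacement genes, against 19.9% of all genes, and above them in 0 members, against 18.4%. The 4 *Hist* calls rest on the spread shared by all 6 libraries. When the model held only the P1 and P2 libraries, 0 of 11219 genes were called by limma and 95 differed 2-fold at an unadjusted p under 0.05, of which 21 were *Hist* genes that were lower.

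**Figure D2:**
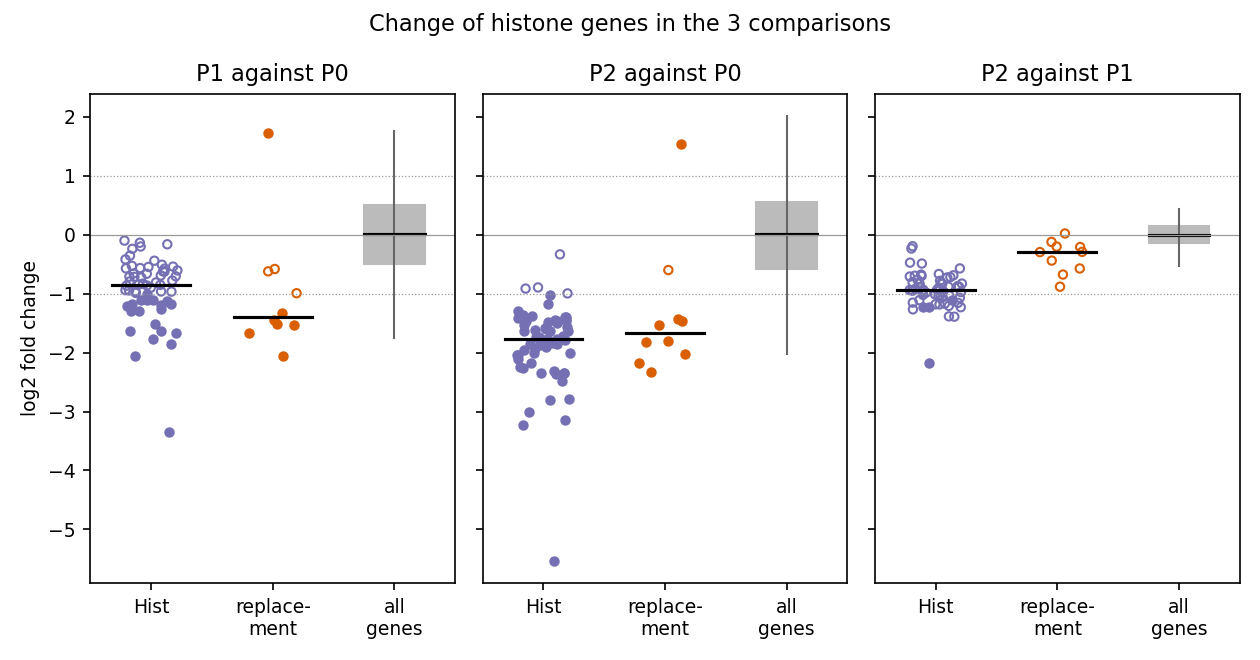
Log2 fold changes of the 61 *Hist* and 10 replacement genes in the 3 comparisons, with filled points for genes called at an adjusted p under 0.05 and 2-fold, open points for the others and a bar at the median. The grey box spans the middle 50% and the line the middle 90% of all 11386 genes, and the *Hist* points lie below 0 in all 3 panels.

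By the mean of both libraries, H2B kept the smallest share of its summed P0 level and the linker family H1 the largest. Summed H2B mRNA was 39.9% of its P0 level in P1 and 21.2% in P2. Values are not corrected for length, so sums weight genes with long transcripts and high values most. Of the H2B sum of 6695.5 scaled units in P0, *Hist1h2be* (2480 bases) made up 1941 and *Hist1h2br* (2197 bases) 864.6. Their levels in P2 were 12.9% and 15.1% of P0. Summed H4, H2A and H3 mRNA were 48.6%, 58.2% and 60.5% of P0 in P1 and 28.3%, 32.4% and 30.4% in P2. Summed H1 mRNA was 76.3% of P0 in P1 (66.4% to 87.9% over lower and higher values) and 51.5% in P2 (37.1% to 68.3%). With lower and higher values, the H2B share ran from 35.5% to 45.0% in P1 and from 15.3% to 28.0% in P2. In P1 the H2B range overlapped with that of H4, and the H1 range with those of H2A and H3. In P2 the H2B range overlapped with those of H2A, H3 and H4, and the H1 range with those of H2A and H3, so that over library values neither place in the order is secure.

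By counts, in P2 against P0 all 16 H2B, 11 H3 and 12 H4 genes fell, as did 16 of 17 H2A genes and 2 of 5 H1 genes. In P1 against P0 the calls were 9 of 16 in H2B, 5 of 12 in H4, 4 of 17 in H2A, 2 of 11 in H3 and 1 of 5 in H1. Among all genes, 14.4% were called lower in P2 and 12.0% in P1 against P0. The P1 counts in H2A, H3 and H1 lay closer to this general rate than those in H2B and H4. Median log2 fold changes in P1 were -1.11 in H2B, -0.94 in H4, -0.85 in H2A, -0.58 in H3 and -0.24 in H1. In P2 against P1 the medians were -1.0 in H2B, -0.84 in H4, -0.95 in H2A, -1.02 in H3 and -0.70 in H1, so that the H3 median, well above that of H2B in P1 against P0, lay beside it in P2 against P1. Differences between families were not tested.

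*Hist3h2ba*, an H2B gene of the small Hist3 cluster (chr11:58948920-58949533), changed most of all members. It had 80.45 and 97.5 scaled units in P0, 7.26 and 8.28 in P1, and 0.80 and 1.07 in P2. No libraries of different passages overlapped, and the level in P2 was 1.05% of that in P0. Its log2 fold change was -3.36 in P1 and -5.54 in P2 against P0 (SE 0.16 for both, adjusted p = 5.29e-05 and 1.17e-05). It shares no window of 50 bases with another member, so its reads can be told from theirs. Its neighbour *Hist3h2a*, an H2A gene, had 305 and 372 scaled units in P0, 99.7 and 112 in P1, and 55.5 and 76.8 in P2. *Hist3h2a* thus fell by less, with a log2 fold change of -1.66 in P1 and -2.35 in P2 (adjusted p = 0.000699 and 0.000154).

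The other large H2B losses were in Hist1. *Hist1h2be* had 1941 scaled units in both P0 libraries, 505 and 566 in P1, and 177 and 325 in P2. The passages did not overlap, and the log2 fold change was -1.86 in P1 and -3.01 in P2 (adjusted p = 0.00189 and 0.000244). *Hist1h2bp* had 284 and 379 scaled units in P0, 91.9 and 100.1 in P1, and 27.9 and 46.6 in P2, and its log2 fold change was -1.76 in P1 and -3.15 in P2. *Hist1h2br* had 791 and 938 in P0, 244 and 313 in P1, and 84.8 and 177 in P2, and fell by 2.81 in P2 on the log2 scale (adjusted p = 0.000732). In these genes the P2 libraries lay far apart, the higher value in *Hist1h2br* being more than double the lower one. *Hist1h2bh* and *Hist1h2bm* share all their windows of 50 bases with other members, so their separate values depend on how RSEM divided the reads, and both fell in P2 (log2 fold change -2.05 and -2.34). *Hist2h2bb* in Hist2 shares no window and had 353 and 403 scaled units in P0, 161 and 191 in P1, and 83.4 and 99.7 in P2. It fell at both passages (log2 fold change -1.1 and -2.04).

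Among H2A genes, *Hist2h2ab* changed most. It had 36.1 and 43.8 scaled units in P0, 8.07 and 9.61 in P1, and 2.51 and 4.33 in P2. Its log2 fold change was -2.06 in P1 and -3.24 in P2 (adjusted p = 0.000786 and 0.000122), and the libraries of the passages did not overlap. *Hist1h2ae* and *Hist1h2af* fell at both passages (log2 fold change -2.36 and -2.34 in P2), and *Hist1h2ak* passed the threshold in P2 (-2.17) and not in P1 (-0.97). The 1 H2A gene that did not pass was *Hist2h2ac*, with 135 and 163 scaled units in P0, 127 and 138 in P1, and 60.3 and 90.6 in P2. Its P1 and P0 libraries overlapped and its log2 fold change in P2 was -0.99, just under 2-fold.

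Among H4 genes, *Hist4h4* on chromosome 6 had 679 and 736 scaled units in P0, 192 and 270 in P1, and 75.4 and 137 in P2. Its libraries did not overlap between passages and it fell at both (log2 fold change -1.63 in P1 and -2.79 in P2, adjusted p = 0.0045 and 0.000456). *Hist4h4* shares no window with another member. *Hist1h4j* had 469 and 611 scaled units in P0, 166 and 213 in P1, and 73.4 and 122 in P2, with a log2 fold change of -1.51 in P1 and -2.49 in P2. *Hist1h4a* had 794 in both P0 libraries, 296 and 348 in P1, and 150.5 and 223 in P2. It fell at both passages (log2 fold change -1.30 and -2.11), as did *Hist1h4k* (-1.18 and -2.25). *Hist1h4n* had 845 and 939 scaled units in P0, 480 and 537 in P1, and 289 and 404 in P2, one of the smaller losses (log2 fold change -0.81 in P1 and -1.38 in P2, adjusted p = 0.00806 and 0.000825).

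H3 genes made 2 of the 4 calls between P2 and P1. *Hist2h3c2* had 60.2 and 78.8 scaled units in P2, against 157 and 167 in P1, and 167 and 190 in P0. It was thus nearly level from P0 to P1, where its libraries met at 1 value, and fell only at the second passage (log2 fold change -0.13 in P1 against P0 and -1.22 in P2 against P1, adjusted p = 0.457 and 0.0386). *Hist1h3f* had 71.1 and 98.8 scaled units in P2, against 176 and 188 in P1, and 395 and 404 in P0. It fell at both steps, with -1.13 in P1 against P0 and -1.11 in P2 against P1 (adjusted p = 0.00175 and 0.0473). The other 2 calls were the H2B genes *Hist3h2ba* and *Hist1h2bm*. *Hist1h2bm* had 23.9 and 32.6 scaled units in P2, against 62.0 and 72.5 in P1 (log2 fold change -1.23, adjusted p = 0.0473), and 135 and 157 in P0. *Hist1h3e* had 411 and 481 scaled units in P0, 168 and 194 in P1, and 65.7 and 119 in P2, and its change between the passages, -1.02, did not pass (adjusted p = 0.165). Adjusted p-values of the 4 calls ran from 0.0301 to 0.0473.

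The linker genes of the *Hist* class varied in their changes. *Hist1h1c*, which encodes the linker histone H1.2, was the only *Hist* gene whose P2 and P0 libraries overlapped. It had 440 and 522 scaled units in P0, 440 and 455 in P1, and 301 and 481 in P2 (log2 fold change -0.10 in P1 and -0.33 in P2, adjusted p = 0.716 and 0.226). *Hist1h1d* and *Hist1h1e* did not pass in P2 either, at -0.89 and -0.91. *Hist1h1a* and *Hist1h1b* did, at -1.95 and -1.54. *Hist1h1a* had 373 and 387 scaled units in P0, 177 and 200 in P1, and 82.0 and 116 in P2, so that the H1 genes ran from a loss of that size to values that overlapped.

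Genes fell throughout the clusters. The Hist1 genes lie in 4 blocks on chromosome 13, of which chr13:21715763-21837530 holds 15, chr13:22035164-22043676 holds 5 and chr13:23531050-23764358 holds 28, with 1 gene apart. Median log2 fold changes in P2 against P0 were -1.87, -1.86 and -1.73 in the 3 larger blocks and -1.39 over the 9 Hist2 genes (chr3:96219865-96270132). All 15 and 5 genes of the first and second block fell in P2, as did 25 of 28 in the third and 8 of 9 in Hist2. Among all genes 14.4% were called lower in P2 against P0. The 3 genes of the third block that did not pass were all linker genes.

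**Figure D3:**
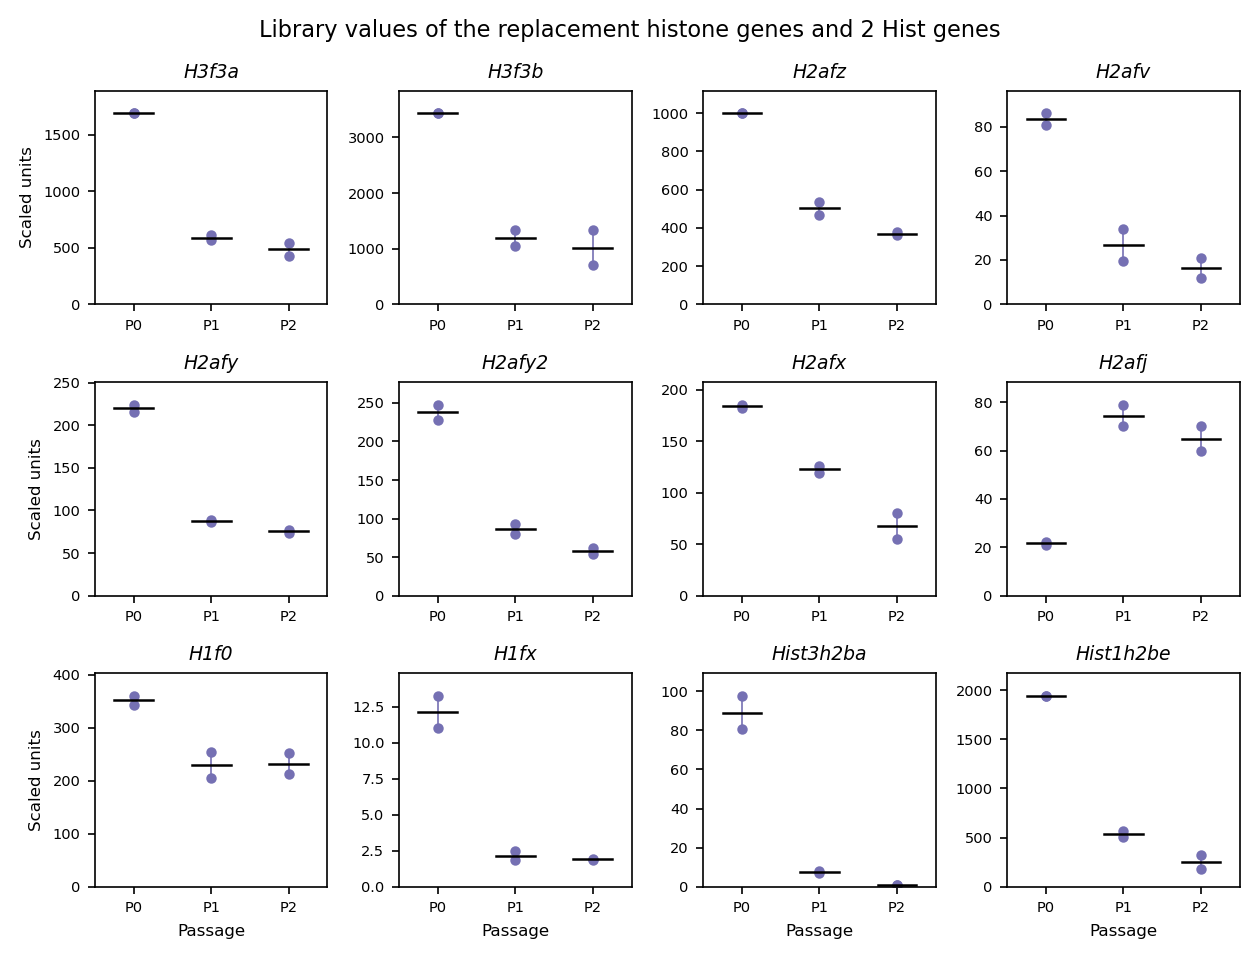
Scaled units of both libraries (points) and their mean (bar) in P0, P1 and P2 for the 10 replacement genes, *Hist3h2ba* and *Hist1h2be*, each on its own axis starting at 0. *H2afj* is higher in both cultured passages than in P0, and the H3.3 genes drop in P1 with little further change in P2.

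The 2 genes of the replacement histone H3.3, *H3f3a* and *H3f3b*, encode the same protein, which is placed at active genes by HIRA and at telomeres and repeats by DAXX and ATRX. *H3f3a* (chr1:180800832-180813632) had 1687 scaled units in both P0 libraries, 568 and 614 in P1, and 431 and 540 in P2. *H3f3b* (chr11:116021912-116027962) had 3432 in both P0 libraries, 1055 and 1334 in P1, and 701 and 1334 in P2. Both genes fell, with a log2 fold change of -1.51 and -1.53 in P1 and of -1.80 and -1.83 in P2 (adjusted p = 0.000262 and 0.00572 in P1, 0.000107 and 0.0024 in P2). Between P2 and P1 the changes were -0.29 in both genes and did not pass (adjusted p = 0.368 and 0.74), and the *H3f3b* libraries overlapped.

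The H2A.Z genes *H2afz* and *H2afv* encode a variant found at promoters. *H2afz* had 999 scaled units in both P0 libraries, 469 and 537 in P1, and 361 and 380 in P2. Its change in P1, -0.99, lay just under 2-fold (adjusted p = 0.00046), whereas in P2 the change was -1.43 and passed (adjusted p = 9.8e-05). Under median-ratio and trimmed-mean scaling the P1 change passed, at -1.02 and -1.01. *H2afv* had 80.8 and 86.0 scaled units in P0, 19.4 and 33.9 in P1, and 11.9 and 20.7 in P2, and fell at both passages (log2 fold change -1.66 and -2.33, adjusted p = 0.00618 and 0.00134).

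The macroH2A genes, whose proteins carry a large extra domain and are found on the inactive X chromosome and other silent chromatin, also fell. *H2afy* had 216 and 224 scaled units in P0, 86.3 and 88.3 in P1, and 74.0 and 76.9 in P2 (log2 fold change -1.32 and -1.53, adjusted p = 0.000112 and 5.34e-05). *H2afy2* had 228 and 248 in P0, 79.5 and 93.4 in P1, and 54.1 and 61.4 in P2 (log2 fold change -1.45 and -2.03, adjusted p = 0.000277 and 6.95e-05). Their libraries did not overlap between any passages. *H1fx*, a linker variant, had 11 and 13.2 scaled units in P0, 1.87 and 2.46 in P1, and 1.87 and 1.92 in P2, with a log2 fold change of -2.05 and -2.17.

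*H2afx* and *H1f0* had the smallest changes of the replacement genes in P1 against P0. *H2afx* encodes H2A.X, which is phosphorylated at DNA breaks, and its gene also makes a transcript with the stem-loop shown above. It had 182 and 185 scaled units in P0, 120 and 126 in P1, and 54.6 and 80.0 in P2. It did not reach 2-fold in P1 (-0.58, adjusted p = 0.0307), but in P2 it fell past the threshold (-1.46, adjusted p = 0.000764), with a change of -0.88 between P2 and P1 that was the largest among the replacement genes and did not pass (adjusted p = 0.0894). *H1f0* encodes H1.0, a linker histone known from cells that have stopped dividing. It had 343 and 360 scaled units in P0, 205 and 255 in P1, and 213 and 252 in P2, and its changes of -0.62 and -0.60 did not reach 2-fold.

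*H2afj* was the only histone gene that rose. It encodes H2A.J, which in human fibroblasts is known to accumulate in senescence. *H2afj* (chr6:136808244-136810070) had 20.9 and 22.3 scaled units in P0, 70.0 and 79.0 in P1, and 59.6 and 70.0 in P2. Its level was 344% of P0 in P1 and 300% in P2, and the libraries of both passages lay above those of P0 (log2 fold change 1.74 and 1.54, SE 0.12, adjusted p = 0.000162 and 0.000167). Between P2 and P1 it did not change past the threshold (-0.20, adjusted p = 0.541). *H2afj* lies 3812 bases from *Hist4h4* on the other strand, with no measured gene between them, and the 2 neighbours moved in opposite directions.

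Reads from near-identical genes can be split wrongly, and this was examined over windows of 50 bases. The median *Hist* gene shared 47.0% of its windows with another member, and 27 of 61 shared at least 50%. Among the 16 *Hist* genes that shared under 20%, 8 fell in P1 and 13 in P2 against P0, with medians of -1.0 and -1.74. Among the other 45, 13 fell in P1 and 44 in P2, with medians of -0.84 and -1.77. Of all genes 12.0% were called lower in P1 and 14.4% in P2 against P0, with medians of 0.02 and 0.01. Replacement genes shared at most 6.1%, and 8 of 10 shared none.

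The position of the stem-loop in the annotated transcript was also set against the changes, where 12.0% of all genes were called lower in P1 and 14.4% in P2 against P0. In 19 *Hist* genes it lay within 100 bases of the transcript end, and of these 1 fell in P1 and 18 in P2 against P0 (medians -0.71 and -1.63). In 20 it lay further inside a longer transcript, and of these 10 fell in P1 and 17 in P2 (medians -1.04 and -1.88). In the 22 without it, 10 fell in P1 and 22 in P2 (medians -0.96 and -1.90). *Hist4h4*, with 2445 bases after the stem-loop, and *H2afx*, with 822, are among the longer transcripts. In 6 *Hist* genes whose human counterparts are known to make polyadenylated transcripts (*Hist1h1c*, *Hist1h2ac*, *Hist1h2bc*, *Hist2h2be*, *Hist3h2a* and *Hist4h4*), 4 fell in P1 and 5 in P2, with medians of -1.23 and -1.67. The share of tailed transcripts was not measured for any *Hist* gene, so a change in tail and a change in amount cannot be told apart.

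The P2 libraries differed from each other in *Hist* genes more than in most genes. The median difference between the 2 libraries of a passage, in log2(scaled units + 1), was 0.21 in P0, 0.15 in P1 and 0.57 in P2 over the *Hist* genes, and 0.10, 0.18 and 0.17 over all genes. In P2 it was over 0.5 in 37 of 61 *Hist* genes (60.7%), against 3 of 10 replacement genes and 11.1% of all genes. *Hist1h2br*, with 84.8 and 177 scaled units, is an example. Since the tables do not link values to libraries, whether 1 P2 library held the lower value of all these genes cannot be told. Even so, the higher P2 value lay below the lower P0 value in 60 of 61 *Hist* genes.

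**Figure D4:**
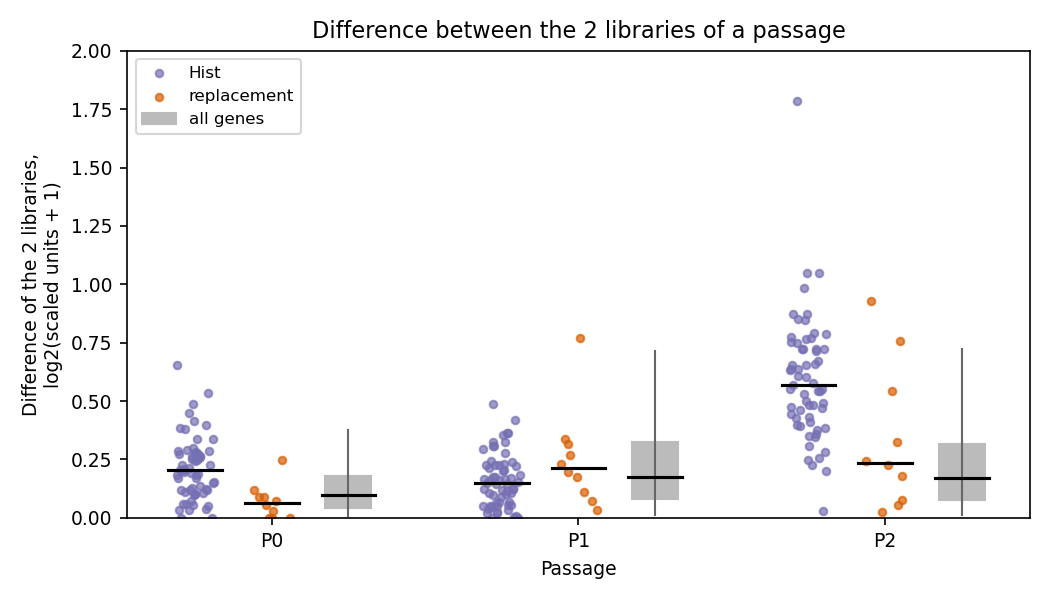
Difference between the 2 libraries of each passage on the scale log2(scaled units + 1), for the 61 *Hist* and 10 replacement genes as points with a bar at the median, and for all 11386 genes as a box of the middle 50% and a line of the middle 90%. The *Hist* median is 0.57 in P2, against 0.17 over all genes.

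Genes that activate histone genes or process their mRNA were counted next. Of 20 listed names, which included other names of the same gene, 17 were measured. Of these genes 1 fell and 1 rose in P1, and 2 fell and 1 rose in P2 against P0. Between P2 and P1, 0 changed (medians -0.44, -0.45 and -0.16). Over all genes 12.0% were called lower and 12.2% higher in P1, and 14.4% and 14.0% in P2, so these counts are not above the general rate. *Slbp*, which encodes the stem-loop binding protein, had 291 and 294 scaled units in P0, 100.3 and 112 in P1, and 73.9 and 75.2 in P2, and fell at both passages (log2 fold change -1.46 and -1.96, adjusted p = 0.000112 and 3.58e-05). *Casp8ap2* (FLASH), needed for 3′ end cleavage, fell in P2 (-1.01). *Lsm10*, a subunit of the U7 particle that guides this cleavage, rose, with 3.58 and 7.26 scaled units in P0, 16.1 and 19.7 in P1, and 15.6 and 16 in P2. *Npat*, the cyclin E/CDK2 substrate that activates histone genes, had 69.1 and 71.6 scaled units in P0, 56.5 and 59.4 in P1, and 50.5 and 52.0 in P2, with a change under 2-fold. *Npat* was named after its values were seen.

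Of 18 genes that supply histones to replicating DNA, all measured, 4 fell in P1, 9 in P2 against P0 and 0 in P2 against P1. None rose, and the medians were -0.63, -0.97 and -0.38. Of all genes 12.0%, 14.4% and 0.211% were called lower in these comparisons, and 12.2%, 14.0% and 0.0878% higher. *Nasp*, a chaperone that keeps a reserve of H3 and H4, had 554 and 594 scaled units in P0, 121 and 152 in P1, and 66.8 and 78.2 in P2. It fell at both passages (log2 fold change -2.07 and -2.97, adjusted p = 0.000138 and 3.63e-05). *Pcna*, the clamp of the replication fork, fell likewise (-1.56 and -2.15), and so did *Rbbp4* (-1.27 and -1.44) and *Mcm2* (-1.08 and -1.59), which also bind histones.

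A list of 17 genes, all measured, covered the supply of histones outside of replication. Of these, 3 fell in P1, 4 in P2 against P0 and 0 in P2 against P1, and 0 rose (medians -0.62, -0.78 and -0.20). *Cenpa*, 1 of the 4 that fell in P2, encodes a histone, the H3 variant CENP-A, and not a factor that places histones. Of all genes 12.0% were called lower and 12.2% higher in P1, and 14.4% and 14.0% in P2. The counts of genes that fell lay little above this general rate, while the medians in P1 and P2 lay below the 0.02 and 0.01 over all genes. *Anp32e*, which removes H2A.Z, had 203 scaled units in both P0 libraries, 88.3 and 90.4 in P1, and 60.6 and 69.7 in P2. *Anp32e* fell at both passages (log2 fold change -1.17 and -1.63), as did *Dek*, a chaperone of H3.3 (-1.16 and -1.64). *Hjurp* fell in P2 alone past the threshold (-0.66 in P1 and -1.23 in P2). *Srcap*, the motor of the complex that deposits H2A.Z, fell in P1 alone past the threshold (-1.11 in P1 and -0.85 in P2).

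Of 30 genes of S phase and division, all measured, 12 fell in P1, 22 in P2 against P0 and 2 in P2 against P1. None rose, and the medians were -0.69, -1.41 and -0.74. Of all genes 12.0%, 14.4% and 0.211% were called lower in these comparisons, and 12.2%, 14.0% and 0.0878% higher. *Mcm4*, a subunit of the replicative helicase, fell at both passages (log2 fold change -1.68 and -2.32), as did *Mcm5* (-1.34 and -2.20). *Top2a*, a topoisomerase of dividing cells, had 260 and 293 scaled units in P2, against 553 and 734 in P1, and 1173 and 1507 in P0, and fell between the passages (-1.20, adjusted p = 0.0493). *Tk1*, a thymidine kinase made in S phase, had 43.4 and 48.5 in P2, against 91.4 and 99.6 in P1, and 106 and 127 in P0 (-1.04, adjusted p = 0.0386). The median change of these genes between P2 and P1 lay, like that of the *Hist* genes, below that of all genes, 0.00.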

How the data were processed

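RNA of P0, P1 and P2 mDMCs was sequenced in 6 libraries, 2 per passage. Per the labels and methods, the authors mapped reads with bowtie, quantified them with RSEM (version 1.1.21 in the submitters' notes) on mm10 and normalized them with EDASeq before testing with DESeq2. The deposited score is their normalized value, as a mean and an error per gene and passage. Library values, taken as mean ± error × √2, were whole numbers for all 11386 genes (tolerance 1e-06). Read as (difference)/2, the error gave whole numbers for at most 2.71% of genes, and read as a standard deviation for at most 32.2%. Totals per passage and the highest value, 133818, were nearly or fully equal, so depth and the counting error are unknown. Each deposited file had 1 empty line.

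Values were scaled to 1000000 per passage, and log2(scaled value + 1) was fitted with limma 3.58.1 (R 4.3.3, trend, all 6 libraries, 3 residual and 3.06 prior degrees of freedom) on all genes. No gene was lost to a minimum of 1 scaled unit in 2 libraries. A fold change on this scale understates changes of low genes. On simulated data for P1 against P0, with 200 of 11386 genes changed, 83.8% of 80 genes with 2-fold changes passed the adjusted p and 100% of 4-fold changes were called, with 5 false calls, and 0 genes were called with no change simulated.

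Genes given with both library values were, by rule, up to 20 called members of largest change against P0, members called in P2 against P1, replacement genes and the 3 *Hist* genes of highest mean, and up to 4 genes per list. Other members shown with values were named after their values were seen. The members, lists and rules were chosen with earlier results of these data known. Promoters came from RefSeq (GRCm38.p6) and transcripts from GENCODE M21. A promoter was matched where its start lay within 300 bases of the deposited start. Values equal on the deposited scale counted as overlapping. Alternatives covered pseudocount, filter, scaling, passages in the fit, variance trend, thresholds, the reading of the error and membership. Tables and figures used Python 3.11.15, numpy 2.4.6, pandas 2.3.3 and matplotlib 3.10.9.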

Additional observations from a re-analysis of the deposited data

How the results depend on the processing

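The median change of the *Hist* genes stayed negative and 0 *Hist* genes were called higher in each comparison under every alternative run. In P1 against P0, 48 *Hist* genes were lower with no fold threshold, against 21. In P2 against P0 the replacement median was -1.45 with a pseudocount of 5, against -1.67. The 4 *Hist* calls of P2 against P1 were the least stable count. It was 0 with only these passages in the fit, 0 at an adjusted p under 0.01, 1 with no variance trend, 7 with no fold threshold, 18 with the error read as a standard deviation and 17 with the error read as the difference divided by 2, which was chosen after seeing the data. The last 2 readings narrow the spread between libraries by construction. Apart from the fit with only these passages, shares of all genes called under the alternatives are not given here. In both comparisons the counts of *Hist* genes thus show only how far the calls depend on the setting. The other 242 summary values stayed close to the main ones. Counts stayed near the main count, medians within the median SE of the members, and summed shares within the range over library values. Of the single genes named, 13 values lost the call and 31 gained it. In P1 against P0 *Hist1h2ae* and *Hist1h2af* were not called at an adjusted p under 0.01 (limma adjusted p = 0.0197 and 0.0108). In P2 against P1 *Hist1h2bm*, *Hist1h3f* and *Hist2h3c2* lost theirs with only these passages in the fit, with no variance trend and at 0.01, and *Hist3h2ba* with only these passages and at 0.01. No paired analysis was possible because the tables do not show which value belongs to which library, and for the same reason no library was left out in turn. With 2 libraries per passage and unknown depth, members that did not pass may still differ by less than 2-fold.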
